A study of Mus musculus with 6 samples.

Results

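Neutrophils are short-lived white cells that leave the bone marrow loaded with granules, and anti-CD11b beads bind them because CD11b is a chain of the integrin by which they adhere to vessel walls. A set of 10 genes that mark these cells was followed sample by sample in CD11b+ cells from the mouse cortex: S100a8, S100a9, Retnlg, Mmp8, Mmp9, Camp, Ltf, Ngp, Cxcr2 and G0s2. The genes were chosen by symbol for their known role, and all 10 were among the 16516 genes of the expression table. The 4LPS group held 3 samples from mice injected intraperitoneally with lipopolysaccharide (LPS, from Escherichia coli 055:B5) at 500 µg/kg once a day on 4 days. The NS group held 3 samples from mice given normal saline on the same 4 days. All animals were wild-type male C57BL/6J mice aged 8 to 10 weeks, their cortices were taken on day 7 after the first injection (D7), each sample pooled the cells of 2 mice, and the cells were collected on a magnetic column (MACS) without a further sort. The labels name the cells microglia. Transcripts of microglia, the resident macrophages of the brain, dominated every sample, with 10 marker genes such as P2ry12 summing to 45740, 46320 and 46320 CPM in the 4LPS samples, against 46770, 47590 and 49340 CPM in the NS samples. CPM, the usual unit of counts scaled to the library total, was computed with TMM normalization, a correction for differences in library composition. Of these 10 markers, 1 fell in 4LPS (P2ry12) and none rose, where 6.43% of all genes tested were called lower and 9.95% higher. Without NS replicate 3 there were 2 that fell (P2ry12 and Tmem119), where 9.12% of all genes were called lower. In 7 of the 10 every 4LPS sample lay below every NS sample, against 17.5% of all genes tested. In 2 of the 10 every 4LPS sample lay above, against 19.9%.

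A neutrophil makes its granules one kind after another while it matures in the marrow. The azurophil granules with myeloperoxidase and elastase come earliest, the specific granules with lactoferrin and cathelicidin follow, and the gelatinase granules with Mmp9 come late. Calgranulins fill the cytosol, and the chemokine receptor CXCR2, which guides mature cells out of the marrow and into tissue, is displayed at the surface. In healthy brain tissue these cells are rare, whereas they are plentiful in blood.

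The total counts were 15208805, 15164123 and 15462396 in 4LPS replicates 1 to 3, and 15158342, 15462166 and 15746606 in NS replicates 1 to 3, so the samples were counted to nearly the same depth. NS replicate 3 stood apart from the rest of its group by the mean chi-square per gene, which is near 1 when counts differ by sampling alone. It was 24.6 and 21.5 between NS replicate 3 and NS replicates 1 and 2, against 5.93 between NS replicates 1 and 2 and 8.02 to 10.2 between 4LPS samples. A few genes with high counts can carry this mean. The median absolute log2 ratio over all genes was 0.156 and 0.162 for NS replicate 3 over NS replicates 1 and 2, against 0.124 between those 2. A typical gene thus differed only slightly more. The calls for the 10 genes and the counts for the gene lists are therefore given with and without NS replicate 3.

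By position, 4 of the 10 genes lie on chromosome 9, 2 on chromosome 3, 2 on chromosome 1, and Retnlg and Mmp9 on chromosomes 16 and 2 (GRCm39, GENCODE annotation). S100a8 (chromosome 3, 90567118 to 90578128, plus strand, 3 exons) and S100a9 (chromosome 3, 90599931 to 90603071, minus strand, 3 exons) are neighbours whose start sites lie 26.8 kb apart. Camp (chromosome 9, 109676442 to 109678685, minus strand), Ngp (chromosome 9, 110248815 to 110252086, plus strand) and Ltf (chromosome 9, 110848339 to 110871835, plus strand) follow each other at distances of 570.1 and 599.5 kb between start sites. The upstream sequences of S100a8 and S100a9, the most abundant pair, and of Ltf and Ngp, whose levels followed each other most closely of all, are shown from the RefSeq promoter table (GRCm38.p6), each located by an exact match in GRCm39 and ended at the start of the canonical transcript. Capitals mark the letters TTGCNNAA, the core of the sites bound by C/EBP factors, which drive granule genes in the myeloid lineage, or its reverse complement TTNNGCAA.
S100a8 (chr3:90576128-90576284, plus strand): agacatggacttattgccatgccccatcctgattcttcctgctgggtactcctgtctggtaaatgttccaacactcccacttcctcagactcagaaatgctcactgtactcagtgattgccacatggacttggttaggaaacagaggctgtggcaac
S100a9 (chr3:90603072-90603278, minus strand): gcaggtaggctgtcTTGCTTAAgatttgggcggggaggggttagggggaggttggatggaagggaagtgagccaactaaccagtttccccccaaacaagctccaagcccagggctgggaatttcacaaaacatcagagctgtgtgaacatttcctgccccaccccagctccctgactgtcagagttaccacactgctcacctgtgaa
Ltf (chr9:110848110-110848338, plus strand): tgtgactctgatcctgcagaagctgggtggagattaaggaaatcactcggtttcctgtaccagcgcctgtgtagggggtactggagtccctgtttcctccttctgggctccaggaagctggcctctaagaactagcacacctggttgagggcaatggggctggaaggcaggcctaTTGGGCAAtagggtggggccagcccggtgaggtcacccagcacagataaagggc
Ngp (chr9:110248626-110248814, plus strand): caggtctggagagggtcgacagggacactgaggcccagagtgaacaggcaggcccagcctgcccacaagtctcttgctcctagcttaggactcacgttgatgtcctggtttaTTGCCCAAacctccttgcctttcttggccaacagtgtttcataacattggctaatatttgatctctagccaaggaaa
In the 250 bases before the RefSeq start, 5 of the 9 genes found in the table held these letters on either strand (S100a9, Retnlg, Mmp8, Ltf and Ngp), and so did 9.56% of all 32851 promoters of the same length. The first base of the match lay at -236 in S100a9, -246 in Retnlg, -19 in Mmp8, -75 in Ltf and -138 and -11 in Ngp, counted from the RefSeq start. The match at -11 in Ngp lies past the start of the canonical transcript and so is not in the sequence shown. A match describes the letters only, and binding was not measured here. Mmp9 is not among the promoters used here.

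In all 10 genes the highest level was that of 4LPS replicate 1, while NS replicate 3 lay above 4LPS replicate 2, so that the 4LPS and NS groups overlapped in every one. None of the 10 passed the test of 4LPS against NS at an adjusted p of 0.05 (edgeR, quasi-likelihood F-test, Benjamini-Hochberg over 13151 genes), whereas 9.95% of all genes tested passed as higher and 6.43% as lower. By unadjusted p under 0.05 there were 4 of 10 genes higher in 4LPS (Retnlg, Mmp8, Mmp9 and Cxcr2), against 17.6% of all genes higher and 33.7% in either direction. DESeq2 called 1 of the 10, Cxcr2, as higher, where it called 10.2% of all genes higher and 6.73% lower. With the replicate number as a block, edgeR called 3, where it called 9.7% of all genes higher and 8.22% lower. The groups did not overlap in 19.9% of all genes with 4LPS above NS and in 17.5% with 4LPS below NS, against 0 of the 10. The fitted log2 fold changes all lay above 0, with a median of 1.07 against -0.02 over all genes. Most of these genes went up and down together over the same samples, so their shared sign is not 10 separate observations. Because these are bulk samples, a difference in the number of neutrophils and one in these transcripts per neutrophil cannot be told apart.

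**Figure D1:**
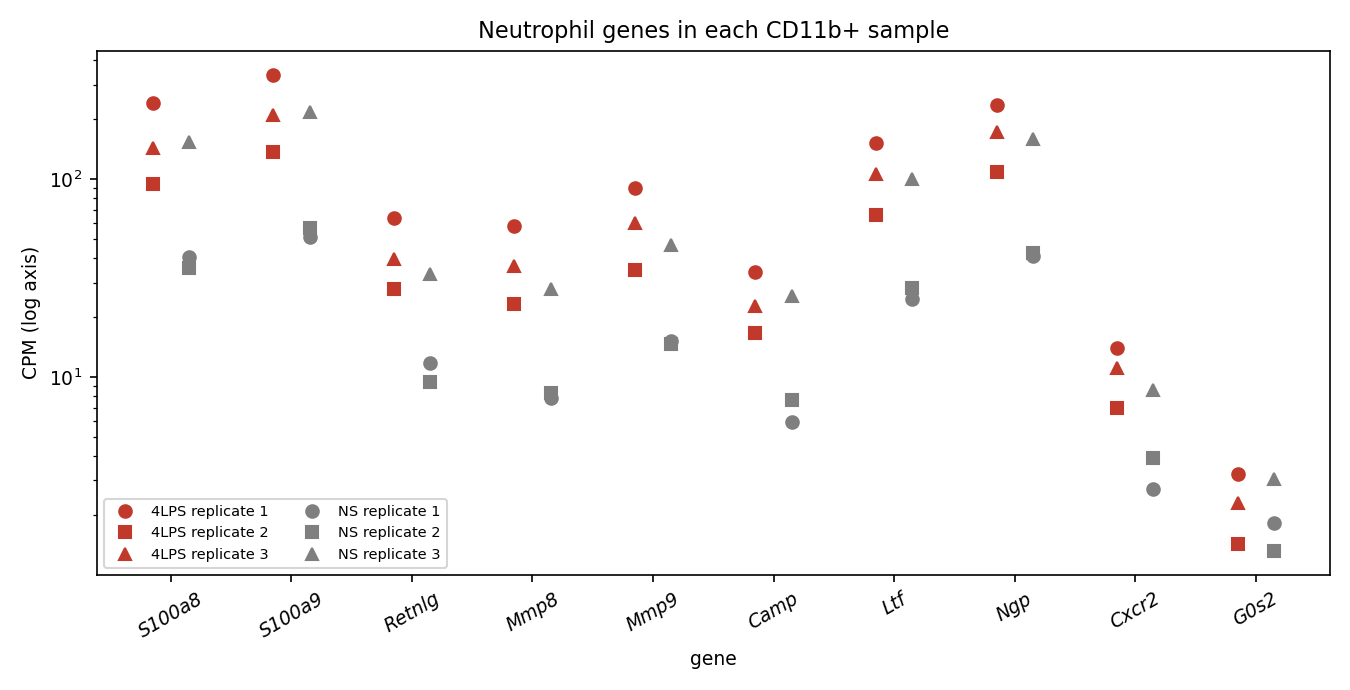
Level of each of the 10 neutrophil genes in CPM (log axis) in the 3 4LPS samples (red, left) and the 3 NS samples (grey, right), with 1 point per sample and the replicate number given by the marker shape. In each gene 4LPS replicate 1 is the highest point and the NS replicate 3 triangle lies above the 4LPS replicate 2 square. Heights are to be compared within a gene, since CPM does not correct for transcript length.

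S100a8 and S100a9 encode the calgranulins, calcium-binding proteins that pair as calprotectin and make up much of the neutrophil cytosol. S100a8 measured 242, 94.1 and 144 CPM in 4LPS replicates 1, 2 and 3, against 40.5, 35.7 and 154 CPM in NS replicates 1, 2 and 3. S100a9 measured 337, 137 and 209.7 CPM in the 4LPS samples, against 50.9, 56.8 and 219 CPM in the NS samples. For both genes NS replicate 3 was the second highest of the 6 samples and exceeded 4LPS replicates 2 and 3, while NS replicates 1 and 2 lay close together at the bottom. The mean of S100a8 was 160.0 ± 75.3 CPM in 4LPS and 76.9 ± 67.2 CPM in NS (SD, n = 3 samples each), a log2 fold change of 1.06 with a standard error (SE) of 0.58 (edgeR adjusted p = 0.234). That of S100a9 was 228 ± 101 CPM in 4LPS and 109 ± 95.5 CPM in NS, a log2 fold change of 1.06 with an SE of 0.57 (edgeR adjusted p = 0.228). Per length of transcript these were the most abundant of the set. S100a8 reached 2008, 723 and 1333 FPKM in the 4LPS samples, against 352, 297 and 1393 FPKM in the NS samples, and took 45.0% to 50.4% of the FPKM summed over the 10 genes. S100a9 took 31.1% to 35.7%.

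Ltf encodes lactoferrin, the iron-binding protein of specific granules, Ngp a cystatin-like protein of the same granules, and Camp the cathelicidin precursor, which is cut to an antimicrobial peptide after release. Ltf measured 151, 65.7 and 107 CPM in the 4LPS samples, against 24.9, 28.2 and 100.1 CPM in the NS samples. Ngp measured 236, 109 and 173 CPM in the 4LPS samples, against 40.7, 42.1 and 159 CPM in the NS samples. In these 2 genes NS replicate 3 fell just below 4LPS replicate 3 and well above 4LPS replicate 2. Camp measured 34.0, 16.6 and 22.9 CPM in the 4LPS samples, against 5.92, 7.61 and 25.7 CPM in the NS samples, and here NS replicate 3 was above 4LPS replicate 3 as well. The log2 fold changes were 1.08 (SE 0.54) for Ltf, 1.10 (0.54) for Ngp and 0.90 (0.53) for Camp, with adjusted p-values of 0.199, 0.191 and 0.263 (edgeR).

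Mmp8 and Mmp9 encode neutrophil collagenase and gelatinase B, granule proteases that cut matrix, and Mmp9 is also known to open the basement membrane of brain vessels. Mmp8 (chromosome 9, 7558457 to 7568487, plus strand, 10 exons) measured 57.7, 23.3 and 36.5 CPM in the 4LPS samples, against 7.80, 8.30 and 27.7 CPM in the NS samples. Mmp9 (chromosome 2, 164780439 to 164797771, plus strand, 13 exons) measured 90.0, 34.7 and 59.7 CPM in the 4LPS samples, against 15.2, 14.6 and 46.4 CPM in the NS samples. For both, NS replicate 3 lay between 4LPS replicates 2 and 3. Mmp8 had the largest log2 fold change of the set, 1.42 (SE 0.52, 95% interval 0.22 to 2.63, edgeR adjusted p = 0.101), and Mmp9 followed with 1.27 (SE 0.49, edgeR adjusted p = 0.117). The span of the noncoding gene Gm31751 overlaps that of Mmp8 on the other strand. No source used here says whether the counting used strand, so reads in the shared stretch cannot be told apart. Whether exons overlap was not examined.

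Retnlg (chromosome 16, 48692547 to 48694862, plus strand, 4 exons) encodes a secreted resistin-like protein of mouse neutrophils. Its level was 63.3, 27.7 and 39.3 CPM in the 4LPS samples, against 11.8, 9.43 and 33.3 CPM in the NS samples. NS replicate 3 again lay between 4LPS replicates 2 and 3, and the log2 fold change was 1.26 (SE 0.49, edgeR adjusted p = 0.115). The relatives Retn and Retnla were below the filter on low counts. Retnla had 4, 3 and 5 counts in the 4LPS samples, against 14, 18 and 8 counts in the NS samples. Without NS replicate 3 it entered the test and was called lower. It also entered the test when any one 4LPS sample was left out, and was not called there. Cxcr2 (chromosome 1, 74193150 to 74200405, plus strand, 2 exons), the receptor for the chemokines CXCL1 and CXCL2, was low, at 14.0, 7.00 and 11.1 CPM in the 4LPS samples, against 2.71, 3.90 and 8.62 CPM in the NS samples. It had the narrowest spread within groups of the 9 genes other than G0s2, with a coefficient of variation of 32.8% in 4LPS and 61.6% in NS, and a log2 fold change of 1.07 (SE 0.42, edgeR adjusted p = 0.122). With DESeq2 its adjusted p was 0.0259, and over the leave-one-out fits with edgeR its log2 fold change was 0.77 to 1.69. Of the ligands and the growth factor for these cells on a list of 6, only 3 were in the expression table (Cxcl3, Cxcl5 and Csf3 were not). Among those 3, only Cxcl2 passed the filter on low counts, and it did not pass the test with or without NS replicate 3.

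G0s2, an inhibitor of the triglyceride lipase ATGL that neutrophils express strongly, departed from the others. It measured 3.24, 1.43 and 2.31 CPM in the 4LPS samples, against 1.83, 1.32 and 3.04 CPM in the NS samples. The groups lay over each other, with NS replicate 3 close to 4LPS replicate 1 and NS replicate 1 above 4LPS replicate 2. The log2 fold change was 0.17 (SE 0.40, 95% interval -0.76 to 1.11, edgeR adjusted p = 0.798), and it turned negative when 4LPS replicate 1 (-0.13) or NS replicate 2 (-0.06) was left out. Only 21 to 49 reads per sample stood behind these values, the fewest of the set. The span of G0s2 (chromosome 1, 192949563 to 192956177, minus strand, 2 exons) overlaps that of Lamb3 on the plus strand. Reads in the shared stretch cannot be told apart without strand, and exon overlap was not examined.

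Without NS replicate 3, 9 of the 10 genes rose in 4LPS (all but G0s2), where 12.2% of 13327 genes passed as higher and 9.12% as lower. Their log2 fold changes then were 1.69 (Cxcr2) to 2.28 (Mmp8), with adjusted p-values of 0.00341 (Ngp) to 0.0108 (Cxcr2) from edgeR. The median over the 10 genes was 2.04, against -0.0019 over all genes. S100a8, for example, had a log2 fold change of 2.07 (edgeR adjusted p = 0.00818). G0s2 had one of 0.56 (edgeR adjusted p = 0.350). When any one of the other 5 samples was left out, 0 of the 10 passed, and the adjusted p-values of the 9 genes were 0.0956 to 0.521 (edgeR). The call for these 9 genes thus turned on 1 control sample, while the lowest log2 fold change of the 9 genes in any leave-one-out fit was 0.56 (Camp without NS replicate 1).

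**Figure D2:**
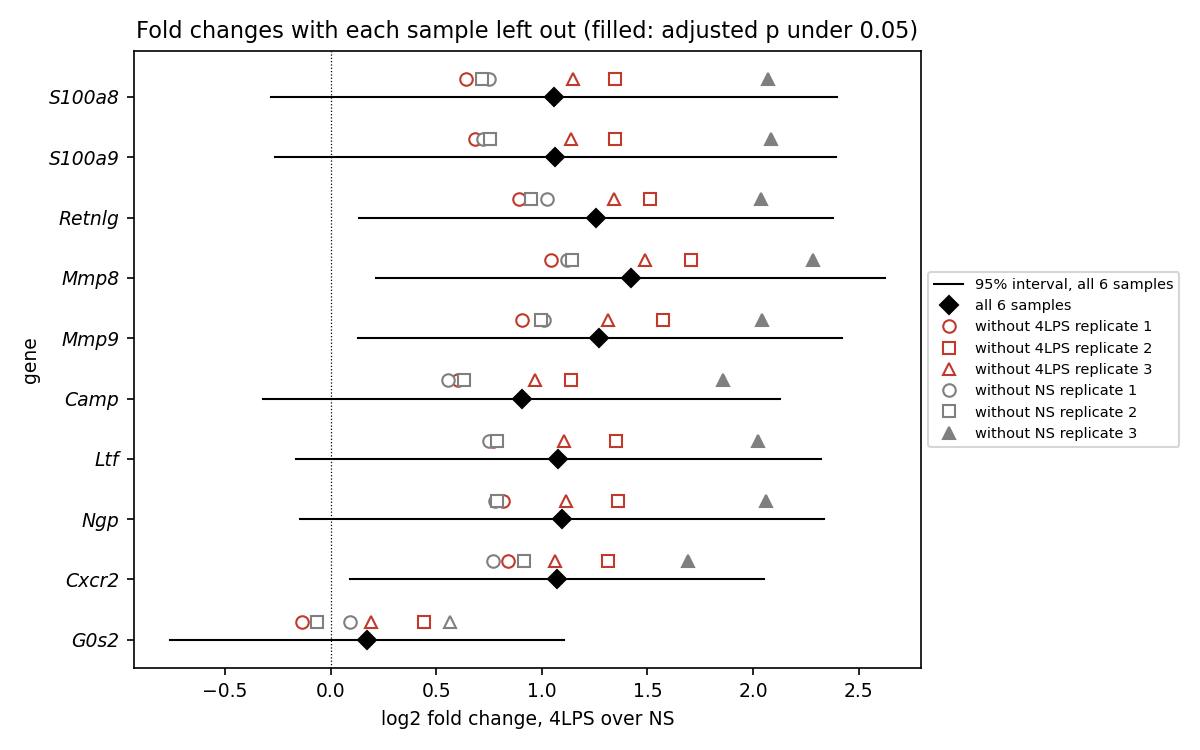
Log2 fold change of 4LPS over NS (edgeR) for each neutrophil gene, with all 6 samples (diamond, with its 95% interval) and with each sample left out in turn (red, a 4LPS sample; grey, an NS sample; shape, the replicate), filled where the adjusted p was under 0.05. The only filled markers are the grey triangles, NS replicate 3 left out, at 1.69 to 2.28 in 9 genes, while the markers of G0s2 lie on both sides of 0.

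The spread within the groups had the same order in all 10 genes. NS replicate 3 was the highest NS sample, 4LPS replicate 1 was the highest 4LPS sample and 4LPS replicate 2 the lowest. This combination was found in 10 of the 10 genes and in 5.31% of all genes tested (698 of 13151). NS replicate 3 exceeded NS replicate 1 by 1.66-fold (G0s2) to 4.34-fold (Camp), with a median of 3.68-fold, and NS replicate 2 by 2.21-fold (Cxcr2) to 4.33-fold (S100a8). NS replicates 1 and 2 differed little, at ratios of 0.694 to 1.38. Among the 4LPS samples, replicate 1 exceeded replicate 2 by 1.99-fold (Cxcr2) to 2.59-fold (Mmp9). For scale, the median absolute log2 ratio over all genes was 0.16 between NS replicates 3 and 1 and 0.12 between 4LPS replicates 1 and 2, whereas the median log2 ratios of the 10 genes were 1.88 and 1.2. In the 9 genes other than G0s2, the lowest 4LPS sample, replicate 2, was 2.28-fold (Mmp9) to 2.99-fold (Mmp8) the level of NS replicate 1. It was 1.80-fold (Cxcr2) to 2.93-fold (Retnlg) that of NS replicate 2, but only 0.61-fold (S100a8) to 0.84-fold (Mmp8) that of NS replicate 3.

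While the levels moved, the proportions among the genes held nearly still. Over the 6 samples the level of S100a8 spanned 6.78-fold and that of Ngp 5.79-fold, but the counts of Ngp per 100 counts of S100a8 spanned only 1.24-fold, at 97.4, 116 and 120.3 in the 4LPS samples, against 101, 118 and 103 in the NS samples. For S100a9 this proportion was 139, 145 and 146 in the 4LPS samples, against 126, 159 and 142 in the NS samples. The span was 1.27-fold to 1.52-fold for S100a9, Ltf, Retnlg, Mmp9, Mmp8 and Camp, and 1.96-fold for Cxcr2. G0s2 again was the exception. It stood at 1.34, 1.52 and 1.60 counts per 100 of S100a8 in the 4LPS samples, against 4.51, 3.70 and 1.97 in the NS samples, so that its proportion was higher in every NS sample and highest where the other 9 genes were low. These proportions share the S100a8 count and are a description of 6 samples.

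Likeness of pattern was measured as the root mean square difference of the log2 CPM profiles over the 6 samples, each centred on its own mean, so that 0 would be an identical course. Ltf and Ngp were each other's nearest gene among 12523, at 0.05. S100a9 was the nearest to S100a8 (0.10), Ltf to S100a9 (0.06), Lcn2 to Mmp9 (0.07), Chil3 to Camp (0.07), Cd177 to Mmp8 (0.11), Itgb2l to Retnlg (0.10) and Slfn1 to Cxcr2 (0.12). The nearest to G0s2 was Gadd45a (0.14). Outside the set, the 5 genes nearest to its mean course were Chil3 (0.08), Trem1 (0.09), Lcn2 (0.09), Cd177 (0.14) and Il1f9 (0.15), where the median over all genes was 0.92. Chil3, a chitinase-like protein that neutrophils also store, measured 54.0, 25.6 and 36.5 CPM in the 4LPS samples, against 10.4, 11.5 and 40.1 CPM in the NS samples. Lcn2, the siderophore-binding lipocalin of specific granules, measured 59.2, 26.2 and 40.1 CPM in the 4LPS samples, against 10.3, 10.9 and 32.0 CPM in the NS samples. Both thus had the course of the set, with NS replicate 3 high and 4LPS replicate 2 low. The distance of the set's own genes from their mean course was 0.09 (Ltf) to 0.19 (Cxcr2), and 0.60 for G0s2.

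**Figure D3:**
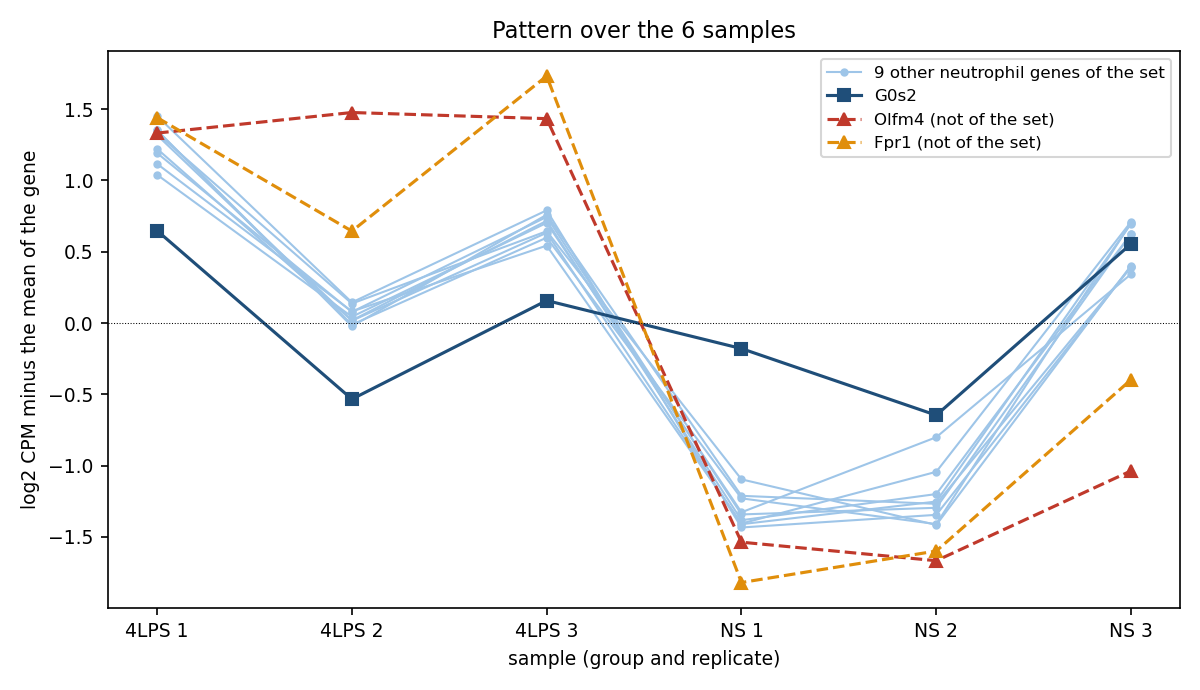
Log2 CPM of each gene minus its own mean over the 6 samples, in the 3 4LPS samples (left) and the 3 NS samples (right). Lines only join the values of 1 gene. The 9 other genes of the set (light blue) run together, with NS replicate 3 near the 4LPS samples, G0s2 (dark blue) lies flatter, and Olfm4 (red) and Fpr1 (orange) stay low in all 3 NS samples.

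Further neutrophil genes were examined in 3 lists by role. Of the azurophil granule and progenitor list, only Mpo and Elane of 6 genes passed the filter on low counts, and neither passed the test. Mpo, myeloperoxidase, measured 3.64, 3.06 and 4.14 CPM in the 4LPS samples, against 0.755, 2.51 and 5.45 CPM in the NS samples (log2 fold change 0.31, edgeR adjusted p = 0.736). Elane, neutrophil elastase, measured 1.62, 1.22 and 1.83 CPM in the 4LPS samples, against 0.315, 0.880 and 1.67 CPM in the NS samples (log2 fold change 0.70, edgeR adjusted p = 0.375). These early granule genes were far below Ltf and Ngp in every sample, on a CPM scale that does not correct for length, and NS replicate 3 was the highest NS sample in both. Without NS replicate 3, 0 of 3 genes of this list passed.

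Of the specific and later granule list, 1 of 9 genes tested rose (Olfm4) and none fell, and of the surface and mature state list 3 of 17 rose (Fpr1, Il1r2 and Csf3r) and none fell, where 9.95% of all genes were called higher. Their median log2 fold changes were 0.90 and 1.17, against -0.02 over all genes. Without NS replicate 3, 8 of 9 and 16 of 18 genes rose, where 12.2% of all genes were called higher. Ly6g, the surface protein by which mouse neutrophils are usually sorted, measured 4.38, 1.84 and 3.59 CPM in the 4LPS samples, against 0.881, 0.754 and 3.84 CPM in the NS samples. It had the same order of samples as S100a8 and a log2 fold change of 0.84 (edgeR adjusted p = 0.378), or 1.99 without NS replicate 3 (edgeR adjusted p = 0.0186). The log2 fold changes of Cd177 and Lcn2 were 1.21 and 1.24, with adjusted p-values of 0.148 and 0.108 (edgeR), and without NS replicate 3 they were 2.12 and 1.99, with adjusted p-values of 0.00597 and 0.00589 (edgeR).

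In Olfm4 and Fpr1, unlike the set, every 4LPS sample lay above every NS sample, as in 19.9% of all genes tested. This held for 1 of 9 genes tested of the specific and later granule list. It held for 4 of 17 of the surface and mature state list. Olfm4 encodes olfactomedin 4, a protein of specific granules found in a subset of neutrophils. It measured 43.2, 47.8 and 46.4 CPM in the 4LPS samples, against 5.92, 5.41 and 8.37 CPM in the NS samples. The 4LPS samples were nearly level and NS replicate 3 stayed far below them, and the log2 fold change of 2.80 (SE 0.16, edgeR adjusted p = 4.26e-05) passed with each sample left out in turn (2.68 to 3.02). Fpr1, a receptor for formylated bacterial peptides that monocytes also carry, measured 10.9, 6.25 and 13.3 CPM in the 4LPS samples, against 1.13, 1.32 and 3.04 CPM in the NS samples. Its log2 fold change of 2.46 (SE 0.42, edgeR adjusted p = 0.00739) also passed with each sample left out (2.21 to 3.04). Per 100 counts of S100a8, a proportion chosen after these values were seen, Olfm4 stood at 17.9, 50.8 and 32.3 in the 4LPS samples, against 14.6, 15.1 and 5.42 in the NS samples. Fpr1 stood at 4.49, 6.64 and 9.25 in the 4LPS samples, against 2.80, 3.70 and 1.97 in the NS samples. In both proportions every 4LPS sample was above every NS sample.

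The other 2 calls were less firm. Il1r2, a decoy receptor for interleukin-1, was low, at 2.97, 1.56 and 2.44 CPM in the 4LPS samples, against 0.504, 0.189 and 1.12 CPM in the NS samples (log2 fold change 1.93, edgeR adjusted p = 0.0475). It lost the call in all leave-one-out fits except that without NS replicate 3, with adjusted p-values of up to 0.149 (edgeR). Csf3r, the receptor for granulocyte colony-stimulating factor, which microglia also express, measured 846, 863 and 923 CPM in the 4LPS samples, against 749, 707 and 697 CPM in the NS samples. Its order of samples was unlike that of the set, and its log2 fold change was 0.29 (edgeR adjusted p = 0.0141, and 0.0509 without NS replicate 2).

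Of 6 transcription factors of the granulocyte lineage, 3 rose and none fell, where 9.95% of all genes were called higher and 6.43% lower. Without NS replicate 3 there were 2 that rose (Gfi1 and Cebpb), where 12.2% of all genes were called higher and 9.12% lower. Gfi1 measured 1.08, 0.680 and 0.949 CPM in the 4LPS samples, against 0.0629, 0.189 and 0.248 CPM in the NS samples (log2 fold change 2.38, edgeR adjusted p = 0.0209), on 40 reads in 4LPS and 8 reads in NS, and its adjusted p reached 0.0717 in leave-one-out fits. Cebpb and Cebpa, which microglia also express, had log2 fold changes of 0.61 and 0.39 (edgeR adjusted p = 0.0122 and 0.0410), and the call for Cebpa was lost in 4 of the leave-one-out fits. Cebpe, the factor needed for specific granules, measured 1.21, 0.748 and 1.08 CPM in the 4LPS samples, against 0.378, 0.754 and 1.18 CPM in the NS samples, with a log2 fold change of 0.39 (edgeR adjusted p = 0.578). Of 6 receptors and partners through which the calgranulins act, Cd14, the coreceptor of TLR4, rose (log2 fold change 0.58, edgeR adjusted p = 0.00108), and Bsg, which binds S100A9, fell (log2 fold change -0.42, edgeR adjusted p = 0.0491, and up to 0.160 in leave-one-out fits). Both calls were also made without NS replicate 3.

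Markers of other cell types that CD11b beads could retain moved with the set in part. For scale, 9.95% of all genes were called higher and 6.43% lower, or 12.2% and 9.12% without NS replicate 3. The 10 genes summed to 1229, 516 and 805 CPM in the 4LPS samples, against 202, 208 and 778 CPM in the NS samples. Border-associated macrophage markers, of which 1 of 8 rose (Ms4a7, also without NS replicate 3) and none fell, summed to 541, 239.7 and 370.1 CPM in the 4LPS samples, against 296, 323 and 433 CPM in the NS samples. The call for Ms4a7 was lost in other leave-one-out fits, with adjusted p-values of up to 0.1115 (edgeR). All 8 border-associated macrophage markers had NS replicate 3 highest in NS, with 4LPS replicate 1 highest and 4LPS replicate 2 lowest in 4LPS. This combination was found in 5.31% of all genes tested. Of 12 monocyte markers, 1 rose (Ms4a4c) and none fell, with a median log2 fold change of 0.22. Without NS replicate 3 there were 6 that rose (among them Ms4a4c, Ly6c2, Ccr2 and Nr4a1) and 1 that fell (Ace), with a median of 0.93, so that more of these markers passed without that sample, as with the 10 genes. NS replicate 3 was the highest NS sample in 11 of the 12 monocyte markers, a share that was not counted over all genes. F13a1 is on both lists. Their sum, 388, 245 and 391 CPM in the 4LPS samples, against 431, 340 and 464 CPM in the NS samples, gives no direction for the list, since a few abundant members such as Fn1 and Ace carry it. Ace measured 58.9, 8.02 and 29.97 CPM in the 4LPS samples, against 175, 135 and 27.8 CPM in the NS samples, and thus was lowest in NS replicate 3 among the NS samples. Within each group Ace had the order of samples of the choroid plexus markers given below. Which cells its reads came from was not tested. None of the markers of either list was at 0 in any sample. Ly6c2, a marker of classical monocytes, had 162, 90 and 117 counts in the 4LPS samples, against 37, 38 and 101 counts in the NS samples, an order like that of the set. The part of these cells in the levels of the 10 genes was not tested.

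Other lists followed another order. NK cell markers, of which 7 of 8 rose and none fell with and without NS replicate 3, summed to 101, 93.4 and 106 CPM in the 4LPS samples, against 7.62, 7.42 and 11.8 CPM in the NS samples. The share of all genes called higher was 9.95%, or 12.2% without NS replicate 3. Choroid plexus markers, at 2204, 1.84 and 528 CPM in the 4LPS samples, against 6543, 5688 and 652 CPM in the NS samples, were lowest in NS replicate 3 among the NS samples, the reverse of the 10 genes, and 4LPS replicate 2 was the lowest 4LPS sample in both. Erythroid markers summed to 7.69, 25.8 and 41.6 CPM in the 4LPS samples, against 2.2, 26.1 and 25.1 CPM in the NS samples, and 4LPS replicate 1, where the 10 genes were highest, was the lowest 4LPS sample. Endothelial markers summed to 134, 173 and 294 CPM in the 4LPS samples, against 339, 272 and 552 CPM in the NS samples, with NS replicate 3 the highest of all and 4LPS replicate 1 the lowest. Mast cell and basophil markers summed to at most 4.65 CPM in any sample. The part of these cells in the spread of the 10 genes was not tested either.

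**Figure D4:**
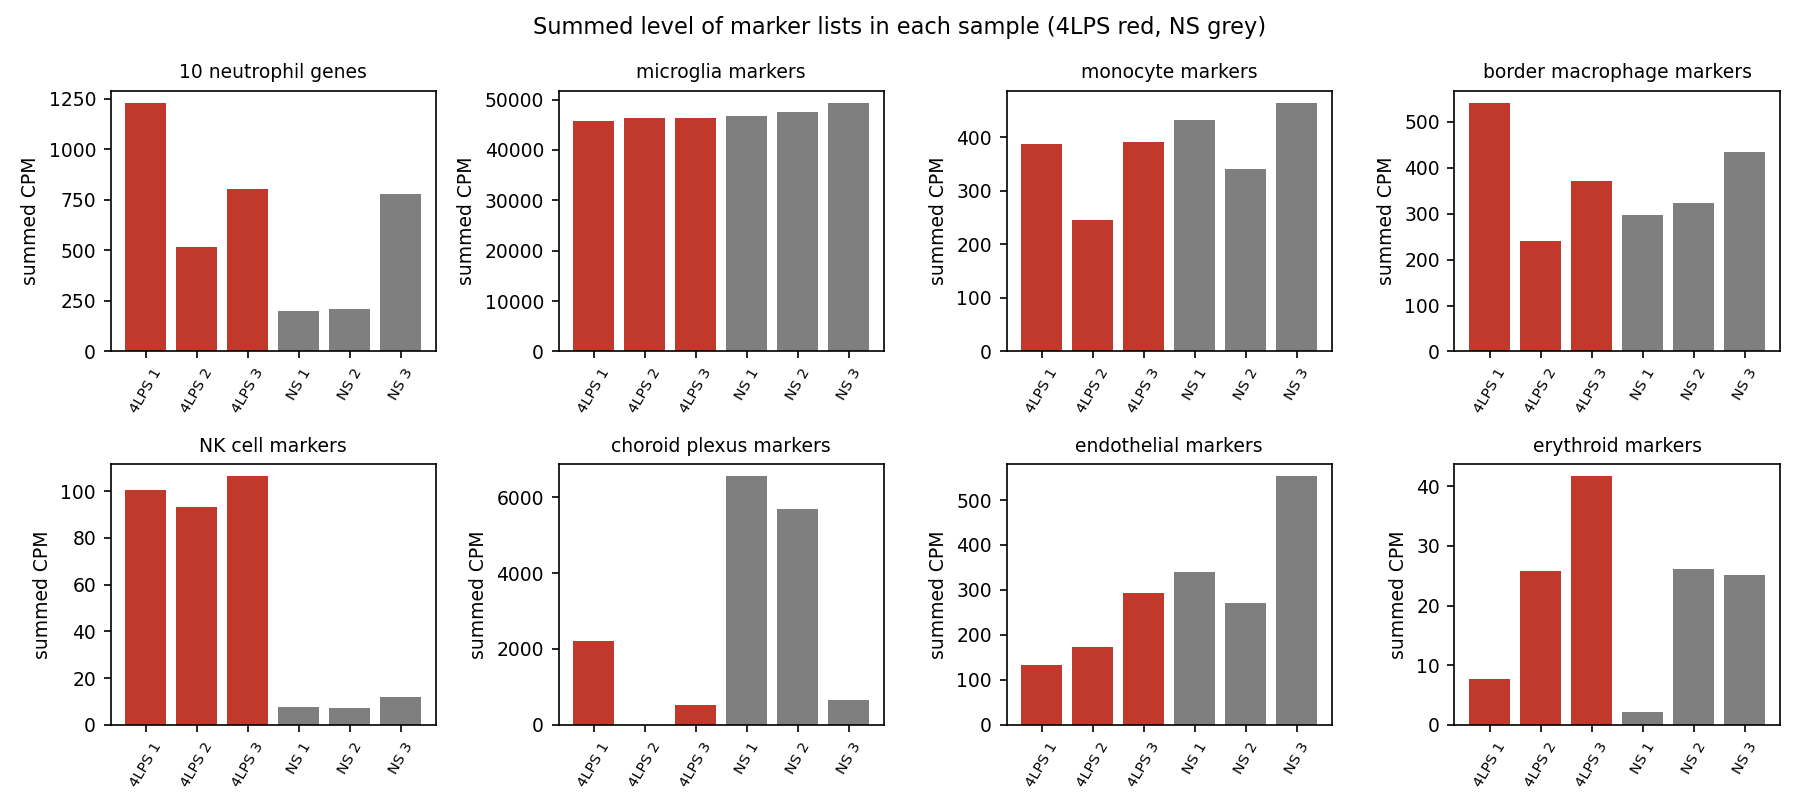
Summed CPM of the 10 neutrophil genes and of marker lists of 7 other cell types in each 4LPS sample (red, left) and NS sample (grey, right), each panel with its own axis from 0. The neutrophil bar of NS replicate 3 (778 CPM) stands with those of 4LPS replicates 2 and 3 (516 and 805 CPM), while the NK cell bars split by group. The microglia bars differ little in height, though each 4LPS bar is below each NS bar.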

How the data were processed

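RNA sequencing was performed on CD11b+ cells from the cortex, 3 4LPS and 3 NS samples, grouped by their labels. The authors filtered paired reads, mapped them with HISAT2 2.0.4 and Bowtie2 2.2.5 (genome mm39 by the methods, while the submitters' processing notes also list mm10) and quantified genes with RSEM 1.2.8. No source used here gives the annotation. In one table the authors deposited expected counts, which are not normalized, with FPKM and TPM values, scaled for length and library total, and a normalized signal, the count divided by a factor per sample. TPM, signal and the authors' group means were not used for results. RSEM shares reads between similar genes.

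Expected counts (2.77% not whole) were rounded and fitted in R 4.3.3 with edgeR 4.0.16 (TMM, filterByExpr, quasi-likelihood F-test, Benjamini-Hochberg over the 13151 genes that passed, adjusted p under 0.05). The procedure was tested on simulated data. Log2 fold changes are 4LPS over NS. With 3 samples a group, an exact permutation test of a single value could not reach 0.05. Samples are separate pools of mice. All 10 genes passed the filter, with 21 counts or more in each sample. Genes and lists were chosen with earlier results of these data known. All 10 genes are named, with 7 further neutrophil markers (1 is not reported here), the called genes of each list (4 at most, the smallest p first, or all where 5 or fewer), and the nearest genes by pattern among those with a mean of at least 1 CPM. Alternatives were other scaling and filters, DESeq2 1.42.0, limma 3.58.1 on counts (voom) and on log2 FPKM, a replicate block and leaving out each sample. Positions are GRCm39 (GENCODE), matched by symbol.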

Additional observations from a re-analysis of the deposited data

How the results depend on the processing

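Of the alternative log2 fold changes of the 10 neutrophil genes, 154 kept direction and call, 13 passed the threshold where the value with all samples did not, and 2 changed sign. All 153 alternative log2 fold changes of the 9 genes other than G0s2 were above 0, at 0.56 to 2.28. That of G0s2 was above 0 in 14 of 16, and it was -0.13 without 4LPS replicate 1 and -0.06 without NS replicate 2, over a leave-one-out range of -0.13 to 0.56. These fits share samples and the 9 genes went up and down together, so the 153 values are not separate observations.

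The number of the 10 genes called higher was 0 with all samples, 1 with DESeq2, and 0 to 9 over the leave-one-out fits, the 9 without NS replicate 3. Of all genes, 9.95% were called higher with all samples, 10.2% with DESeq2 and 12.2% without NS replicate 3. The 3 lists of other neutrophil genes had 2, 9 and 17 genes tested with edgeR, or 3, 9 and 18 without NS replicate 3. The number of other neutrophil genes called higher was 4 with all samples, 8 with DESeq2, and 2 to 24 over the leave-one-out fits, the 2 without NS replicate 2 and the 24 without NS replicate 3. The causes of these changes were not tested. Other scaling factors, other filters, limma-voom and log2 FPKM values changed no call among the 10. G0s2 had no value when at least 50 counts in 3 samples were required.

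With the replicate number as a block, 3 of the 10 genes passed (Retnlg 1.37, Mmp8 1.54 and Mmp9 1.36, adjusted p = 0.0457, 0.0461 and 0.0460 from edgeR, where 9.7% of all genes passed as higher), and 10 other neutrophil genes. The numbers were not found to pair the samples, since deviations of same-numbered samples correlated at 0.47, -0.26 and 0.07 across genes, and not every sample correlated best with its own number.

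At totals of 15158342 to 15746606 counts, G0s2 had only 21 to 49 reads per sample, the largest relative counting error of the set. With 3 samples a group and a spread this wide, a call missed here does not show that the groups are alike.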

Other observations

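Relatives of the 10 genes were examined by family. Among all genes, 9.95% were called higher and 6.43% lower, or 12.2% and 9.12% without NS replicate 3. Of 8 other calcium-binding S100 genes tested, 1 fell in 4LPS (S100a16) and none rose, and without NS replicate 3 there were 4 that rose (S100a4, S100a6, S100a10 and S100a11). The call for S100a16 was lost without 4LPS replicate 2 (edgeR adjusted p = 0.0546). Of 10 other matrix metalloproteinases and their inhibitors tested, 3 rose (Mmp12, Mmp14 and Mmp19) and 3 fell (Mmp15, Timp3 and Reck), and without NS replicate 3 there were 3 that rose and 2 that fell (Mmp15 and Timp3). The call for Reck was lost in 4 of the leave-one-out fits, and that for Mmp15 without 4LPS replicate 3 (edgeR adjusted p = 0.0581). Mmp12, the macrophage elastase, measured 3.10, 2.79 and 5.70 CPM in the 4LPS samples, against 1.45, 1.01 and 1.55 CPM in the NS samples (log2 fold change 1.53, adjusted p = 0.0235, edgeR). Its groups did not overlap, unlike those of Mmp8 and Mmp9, and 19.9% of all genes tested likewise had 4LPS above NS throughout. The call for Mmp12 was lost in 3 of the leave-one-out fits. Of 6 partners of G0s2 in lipolysis, Plin2, which coats lipid droplets, rose and Mgll, which cleaves monoglycerides, fell, also without NS replicate 3. The call for Plin2 was lost without NS replicate 1 (edgeR adjusted p = 0.0554).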
